A study of Mus musculus with 4 samples.

Results

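Cyclins, cyclin-dependent kinases (CDKs), CDK inhibitors and the E2F and retinoblastoma genes were examined in cardiac endothelial cells of adult mice. The 45 genes are those of a fixed list of symbols, and their probes were found by matching the accession of each non-control probe to RefSeq. A probe was found for 44 of the 45, among 18353 genes with a symbol and a probe, and no probe matched Ccnd1. In all, 67 probes matched, and each gene is summarised by the probe with the highest mean over the arrays. The study labelled RNA from 2 samples of mice marked G2-EC-KO, whose genotype is given as Gata2 knock out, and from 2 control samples given as wild type, and hybridised each to 1 Agilent 1-colour array. Gata2 encodes a DNA-binding regulator of blood and vascular cells. The promoter driving any Cre, the deleted part of Gata2, the ages beyond adult and the number of animals in each sample are not given in the sources used here. Nothing in the labels says that the samples of a group came from separate animals, so p-values measure only how these samples vary, and that variation may be technical.

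A dividing cell passes its checkpoints when cyclins, made and destroyed in turn, activate their CDK partners. D-type cyclins with Cdk4 or Cdk6, and then cyclin E with Cdk2, phosphorylate the retinoblastoma proteins and free E2F factors, which turn on genes of DNA synthesis. Cyclin A and B with Cdk1 then drive entry into mitosis. CDK inhibitors hold these kinases in check, and most endothelial cells of an adult heart are held out of the cycle.

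Values below are processed spot intensities scaled so that the 75th percentile of each array is 1000 units, and log2 changes are G2-EC-KO minus control. Between 63.8% and 66.5% of probes on the 4 arrays passed the scanner software's test for signal well above background, 0 spots were saturated, and the number of arrays limits the precision. The arrays lay on 1 slide, with G2-EC-KO at positions 3 and 4 and control at positions 1 and 2, so position and group cannot be told apart. Gata2 read 4480.1 and 5483 units on the G2-EC-KO arrays and 3617 and 4504 on the control arrays at its brightest probe, a log2 change of 0.30 (SE 0.18) with overlap of the groups. Without the deleted part of the gene, this checks nothing, and the directions given here rest on the labels. All 18 endothelial markers examined were tested, with a median log2 change of 0.035 and sums of 1220275 and 1251038 units in G2-EC-KO and 1152754 and 1230398 units in control. Their log2 changes ran from -0.50 to 0.44. Both G2-EC-KO arrays lay above both control arrays at 5 of these markers and below both at 4, against 30.8% and 16.4% of all genes with a symbol tested.

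Promoters are shown for 5 of the genes because Cdk1, Ccnb2, Cdkn3 and E2f2 were among the members with the largest differences, while Cdk4 is shown as a gene with a small one. Each window runs from 250 bases before to 50 bases after the gene start, from RefSeq on GRCm38.p6, printed 5′ to 3′ on the strand of the gene. Capitals mark matches, on either strand, to E2F sites (TTTCCCGC, TTTGGCGC, TTTCGCGC or TTTGCCGC), to the cell cycle homology region or CHR (TTTGAA or TTCGAA), and to the CCAAT box (CCAAT). None of these motifs contains another, and TTCGAA reads the same on both strands.
Cdk1, chr10:69352863-69353162, - strand: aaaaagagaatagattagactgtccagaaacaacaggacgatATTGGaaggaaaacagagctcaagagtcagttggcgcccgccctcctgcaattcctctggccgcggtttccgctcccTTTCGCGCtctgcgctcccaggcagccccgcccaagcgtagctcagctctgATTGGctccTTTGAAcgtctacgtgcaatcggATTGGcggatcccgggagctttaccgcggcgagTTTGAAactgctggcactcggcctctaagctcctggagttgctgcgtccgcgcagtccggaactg
Ccnb2, chr9:70421505-70421804, - strand: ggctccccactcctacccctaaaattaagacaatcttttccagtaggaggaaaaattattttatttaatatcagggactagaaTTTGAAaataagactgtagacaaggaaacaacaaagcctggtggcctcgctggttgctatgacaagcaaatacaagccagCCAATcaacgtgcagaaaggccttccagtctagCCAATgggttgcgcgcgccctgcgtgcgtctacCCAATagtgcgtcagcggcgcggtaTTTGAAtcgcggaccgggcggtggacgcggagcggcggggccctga
Cdkn3, chr14:46760291-46760590, + strand: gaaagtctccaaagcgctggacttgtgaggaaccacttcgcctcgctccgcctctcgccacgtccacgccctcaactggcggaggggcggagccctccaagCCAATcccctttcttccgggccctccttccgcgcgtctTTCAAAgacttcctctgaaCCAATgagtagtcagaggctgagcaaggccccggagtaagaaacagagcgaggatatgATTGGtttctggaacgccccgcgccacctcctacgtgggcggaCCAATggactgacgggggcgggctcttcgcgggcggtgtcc
E2f2, chr4:136172024-136172323, + strand: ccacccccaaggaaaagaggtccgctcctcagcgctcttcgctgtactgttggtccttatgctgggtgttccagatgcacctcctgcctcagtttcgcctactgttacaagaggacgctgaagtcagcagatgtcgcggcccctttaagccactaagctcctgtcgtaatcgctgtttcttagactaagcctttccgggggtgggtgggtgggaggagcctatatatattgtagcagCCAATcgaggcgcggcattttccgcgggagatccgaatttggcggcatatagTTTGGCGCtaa
Cdk4, chr10:127063285-127063584, + strand: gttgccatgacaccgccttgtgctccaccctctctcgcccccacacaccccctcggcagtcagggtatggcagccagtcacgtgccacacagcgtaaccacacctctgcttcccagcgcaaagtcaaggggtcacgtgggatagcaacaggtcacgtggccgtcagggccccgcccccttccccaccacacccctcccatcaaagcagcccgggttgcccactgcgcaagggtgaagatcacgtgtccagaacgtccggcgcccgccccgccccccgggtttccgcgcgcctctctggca

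The Cdk1 window holds 1 E2F match, 2 CHR matches and 3 CCAAT boxes, and that of Ccnb2 holds 2 CHR matches and 3 CCAAT boxes. In the Cdkn3 window there are 1 CHR match and 4 CCAAT boxes. The first of the 2 E2f2 starts has 1 E2F match and 1 CCAAT box, and the Cdk4 window has none of the motifs. These 5 windows do not stand for all members. The Ccnb1 window, not printed though its log2 change was larger than that of Cdk1, has 2 CCAAT boxes and neither other motif. All 3 motifs occur in 1 of the 2 windows of E2f3, a gene with a log2 change of 0.28. RefSeq promoter windows matched 34 of the 45 genes, with 42 windows in all. Of these genes, 17 of the 45 were set apart as periodic, meaning that their transcripts are known to rise and fall through the cycle of dividing cells. Windows of periodic genes held a CHR match in 7 of 16 cases, against 3 of 26 windows of the other members and 19.2% of all 32851 windows. A CCAAT box was found in 12 of 16 periodic windows, 9 of 26 other windows and 37.4% of all windows. E2F matches were found in 5 of 16 periodic windows, 5 of 26 other windows and 2.26% of all windows. Of these 5 other windows, 2 are overlapping windows of Tfdp1 that hold the same match. A match is a run of letters and not a measured site.

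Members tested in the fit were 43 of 45, since Cdkn2a, the inhibitor gene of the INK4a and ARF products, was not well above background on any array. No member passed limma's adjusted p of 0.05, against 0.00% of all 13617 genes with a symbol and 0.00372% of all probes tested, which is 1 probe, and the smallest adjusted p among members was 0.387. Without adjustment, 14 of the 43 had a limma p under 0.05 with a higher signal in G2-EC-KO, against 6.19% of all genes, and 0 had one with a lower signal, against 1.99%. The count of 14 became 23 without G2-EC-KO replicate 1, where the share of all genes higher at that p also grew, to 12.0%. Both G2-EC-KO arrays lay above both control arrays at 27 of the 43 members, against 30.8% of all genes, and below both at 4, against 16.4%. The log2 change was above 0 at 34 members, against 58.6% of all genes, and at least 1 at 10 members, against 1.47%, with Cdc25c among the 10 by its fitted value. The median log2 change was 0.28 over the members tested and 0.043 over all genes. One member, Cdc25c, passed the filter on dim probes only through the G2-EC-KO arrays, and it is counted in the 14, the 27 and the 34. The median was 0.28 over the 42 members well above background on all 4 arrays. In a fit of such probes only, 16 of the 42 were higher at an unadjusted limma p under 0.05, against 6.28% of all genes.

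The difference lay mainly in the periodic members. All 17 periodic members, Cdc25c included, had a positive log2 change, against 58.6% of all genes, with a median of 1.17. In each, both G2-EC-KO arrays lay above both control arrays, against 30.8% of all genes. Over the 16 well above background on all 4 arrays the median was 1.11 and the range 0.24 to 1.73, since for Cdc25c only a bound holds. Of the 26 other members tested, 17 had a positive and 9 a negative log2 change, near the 58.6% positive over all genes. Their median was 0.092, beside 0.043 over all genes, and their range -0.25 to 0.90. This split of the members was made with earlier results known and was not tested. The median of the periodic members was 0.72 with normexp background correction, an alternative treatment of background that shrinks differences of dim probes.

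**Figure D1:**
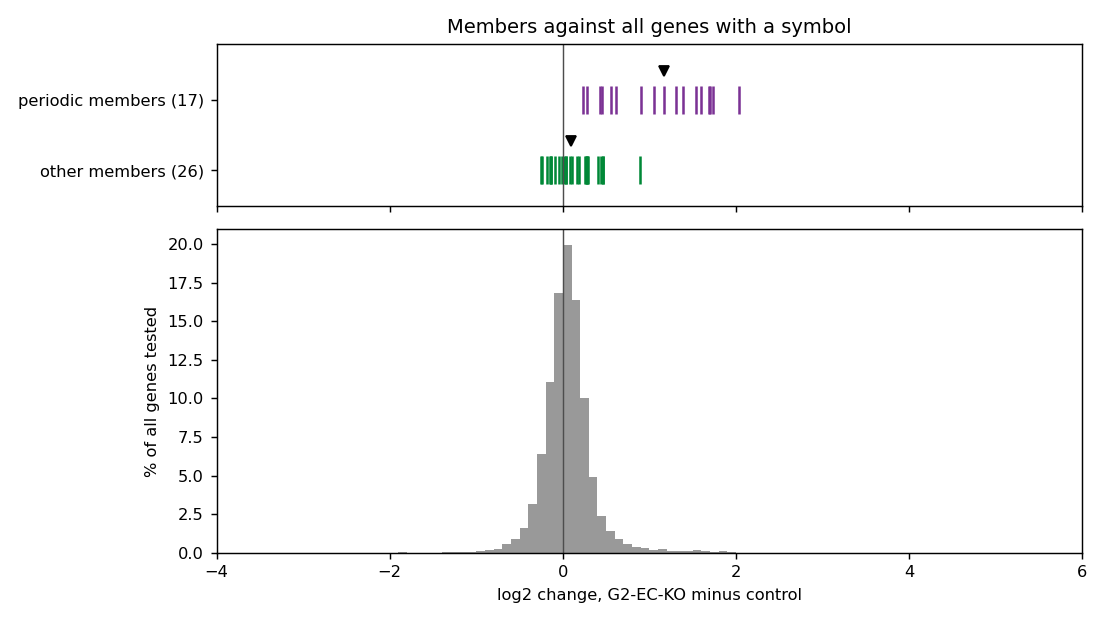
Log2 changes (G2-EC-KO minus control, horizontal axis) of the 17 periodic and the 26 other members, 1 tick per gene with triangles at the medians of 1.17 and 0.092, above the distribution of all 13617 genes with a symbol as a percent of genes per bin. The periodic ticks lie to the right of 0, while the other members lie mostly within the bulk of all genes. Cdc25c is drawn at its fitted value, though only a bound holds for it, and the periodic median without it was 1.11.

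Among the cyclins, those of S phase and mitosis read higher in G2-EC-KO, 3.33-fold for Ccna2, 3.22-fold for Ccnb1 and 2.91-fold for Ccnb2, and the D-type cyclins differed little. Ccna2, the cyclin A of dividing somatic cells, read 1068 and 1899.6 units in G2-EC-KO and 497 and 369 units in control. The groups did not overlap, and the log2 change was 1.73 with an SE of 0.33 and a 95% confidence interval of 0.87 to 2.60 (adjusted p = 0.387 by limma). Ccnb1, a cyclin of mitotic entry, read 103 and 175 units in G2-EC-KO and 46.1 and 37.6 units in control. All 3 of its probes were higher on both G2-EC-KO arrays, with log2 changes of 1.69 (SE 0.29), 1.79 (SE 0.36) and 1.94 (SE 0.37). The other mitotic B-type cyclin gene, Ccnb2, read 1902 and 3354 units in G2-EC-KO and 976 and 770.3 units in control, a log2 change of 1.54 (SE 0.31). In each of these genes replicate 2 was the higher of the G2-EC-KO arrays, and the spread between the G2-EC-KO arrays was wider than that between the controls.

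The E-type cyclins, partners of Cdk2 at the start of DNA synthesis, were also higher, and more evenly between replicates. Ccne2 read 103 and 123 units in G2-EC-KO and 61.3 and 47.8 units in control, a log2 change of 1.05 (SE 0.18). Ccne1, given here as its paralog after the values were seen, read 819.6 and 819 units in G2-EC-KO and 597 and 519.5 units in control, a log2 change of 0.56 (SE 0.12). The second probe of each gene also had both G2-EC-KO arrays above both controls, at 0.95 (SE 0.20) for Ccne2 and 0.37 (SE 0.16) for Ccne1. Ccnf, an F-box protein that targets proteins for destruction, had a log2 change of 1.17 (SE 0.25). Ccna1, the cyclin A best known from the germ line, had one of 0.90 (SE 0.35) and an adjusted p of 0.527 by limma.

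The D-type cyclins carry mitogen signals to Cdk4 and Cdk6. Ccnd2 read 19823 and 18635 units in G2-EC-KO and 15338 and 16966 units in control at its brightest probe, a log2 change of 0.25 (SE 0.12). Its other probes gave -0.16 (SE 0.13) and -0.10 (SE 0.12), so the probes disagree in sign and no direction can be given for Ccnd2. Ccnd3 had a log2 change of 0.17 (SE 0.18), and its groups overlapped. Of the G-type cyclins, Ccng1, a p53 target, had a log2 change of 0.40 (SE 0.16) and no overlap of the groups, and Ccng2, a gene of cells leaving the cycle, one of 0.038 (SE 0.25) with overlap. The change of Ccng2 turned negative without control replicate 1, at -0.18, and without G2-EC-KO replicate 1, at -0.23.

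**Figure D2:**
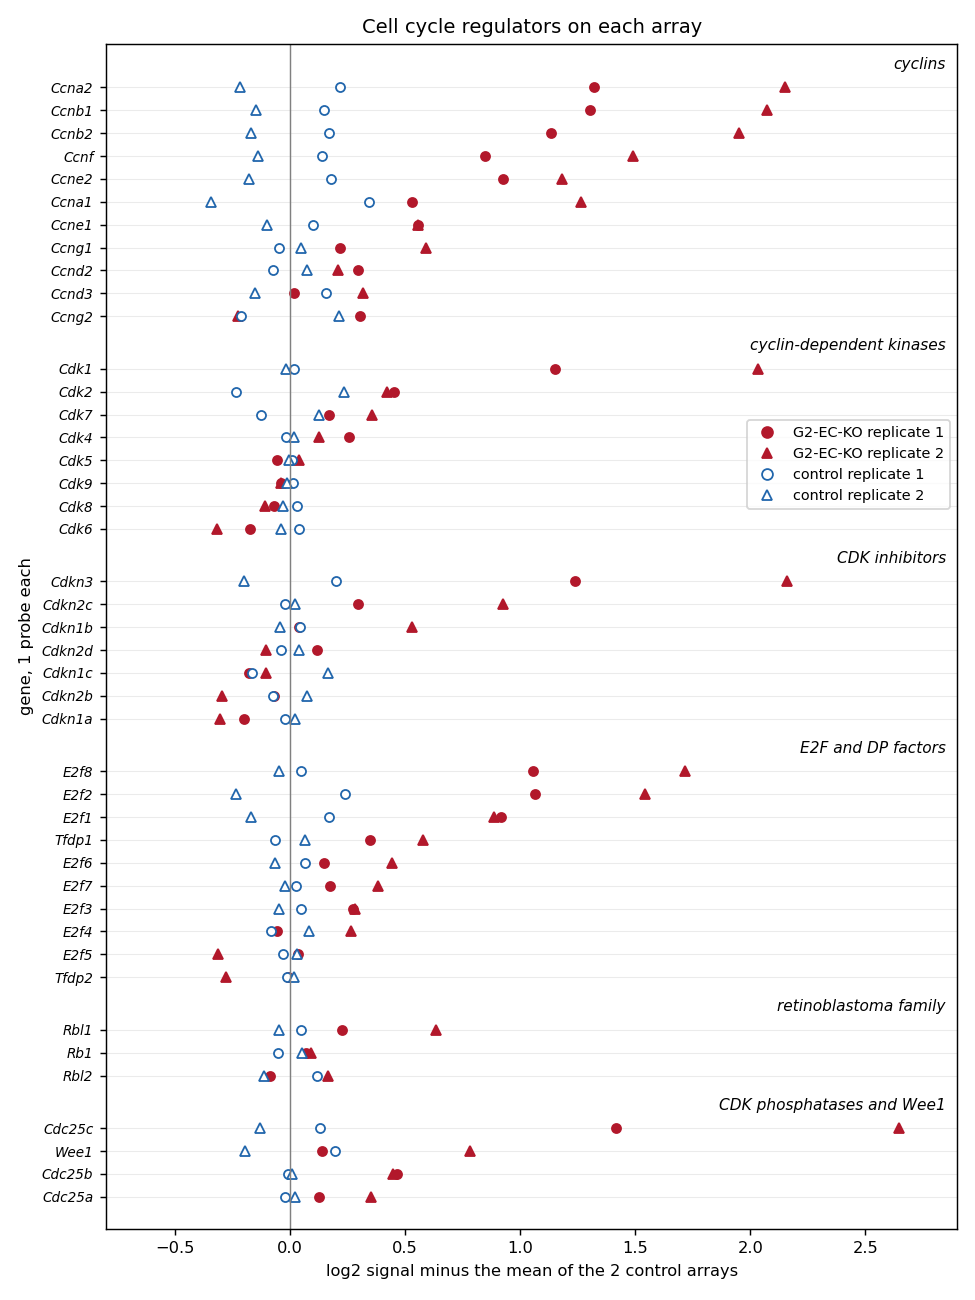
Log2 signal of each tested member on each array minus the mean of the 2 control arrays (horizontal axis), with genes grouped by role. Filled red symbols are G2-EC-KO arrays and open blue symbols control arrays, with circles for replicate 1 and triangles for replicate 2. The red symbols lie far to the right for Ccna2, Ccnb1, Ccnb2, Cdk1, Cdkn3 and Cdc25c, where replicate 2 is the higher. Cdc25c is drawn against control signals that were not well above background. Symbols of most other kinases and inhibitors lie near 0, some with and some without overlap of the groups.

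Of the 8 kinases, each at its brightest probe, only Cdk1, the mitotic kinase and partner of cyclins A and B, had an unadjusted limma p under 0.05. It read 491 and 905 units in G2-EC-KO and 224 and 218 units in control, which is 1.59 higher on the log2 scale (SE 0.31, 95% confidence interval 0.77 to 2.41, limma with an adjusted p of 0.387). The 2 controls lay close together and both G2-EC-KO arrays lay well above them. A second Cdk1 probe was not well above background on any array and was not tested. Cdk2, the partner of cyclins E and A, read 198 and 194 units in G2-EC-KO and 123 and 171 units in control, a log2 change of 0.44 (SE 0.19), and its second probe gave 0.13 (SE 0.12).

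The D-type cyclin kinases differed little. Cdk4 had a log2 change of 0.19 (SE 0.11). Cdk6 read 203 and 184 units in G2-EC-KO and 235 and 223 units in control at its brighter probe, a log2 change of -0.25 (SE 0.12). At its dimmer probe it read 52.9 and 52.0 units in G2-EC-KO and 43.8 and 37.7 units in control, a log2 change of 0.37 (SE 0.13) with an unadjusted limma p of 0.0365 and an adjusted p of 0.508. The 2 Cdk6 probes thus pointed in opposite directions, each without overlap of the groups.

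The kinases with main roles outside the cyclin D, E, A and B series had small log2 changes. Cdk7, the kinase that activates other CDKs and acts in transcription, read 569 and 649 units in G2-EC-KO and 464 and 553 units in control, a log2 change of 0.26 (SE 0.15), while its dimmer probe gave 0.27 (SE 0.24) with overlap. Cdk9, the kinase of transcription elongation, read 10651 and 10650.2 units in G2-EC-KO and 11032 and 10856 units in control. The log2 change of Cdk9 was -0.039 (SE 0.10), and its 95% confidence interval ran from -0.31 to 0.24. Cdk8, of the Mediator complex, had a log2 change of -0.090 (SE 0.11), with another probe at -0.30 (SE 0.12), and Cdk5, best known in neurons, one of -0.0088 (SE 0.11), which turned positive with median centring, at 0.010, and without G2-EC-KO replicate 1, at 0.037.

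Cdkn3, a phosphatase that acts on Cdk1 and Cdk2, was the inhibitor gene with a large difference. It read 607 and 1151 units in G2-EC-KO and 296 and 224 units in control, a log2 change of 1.70 with an SE of 0.35 (adjusted p = 0.387 by limma), and its second probe gave 1.71 (SE 0.36). Cdkn2c, an INK4 inhibitor of Cdk4 and Cdk6, read 1164 and 1799.6 units in G2-EC-KO and 934 and 963 units in control, a log2 change of 0.61 (SE 0.23). The groups did not overlap at either gene, and replicate 2 was again the higher G2-EC-KO array.

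The other inhibitors had smaller log2 changes. Cdkn1a, a p53 target that inhibits several CDKs, read 41644 and 38714 units in G2-EC-KO and 47053 and 48610.3 units in control. The log2 change of Cdkn1a was -0.25 with an SE of 0.11 and a 95% confidence interval of -0.54 to 0.040 (adjusted p = 0.542 by limma), with both G2-EC-KO arrays below both controls. Cdkn1b, its relative in quiescent cells, read 1927 and 2705 units in G2-EC-KO and 1931 and 1821 units in control, where replicate 2 of G2-EC-KO alone stood apart. Its log2 change was 0.28 (SE 0.19), while its dimmer probe gave -0.21 (SE 0.11), opposite in sign. The log2 changes of Cdkn1c, an imprinted inhibitor, Cdkn2b, an INK4 inhibitor induced by TGF-beta, and Cdkn2d, another INK4 inhibitor, were -0.14 (SE 0.15), -0.18 (SE 0.14) and 0.0080 (SE 0.13), each with overlap of the groups. The sign of Cdkn1c turned without control replicate 2, at 0.024, and that of Cdkn2d turned without control replicate 1, at -0.030, without G2-EC-KO replicate 1, at -0.10, and with quantile normalization, at -0.012.

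Among the 10 E2F and DP factors, log2 changes were largest for E2f8, E2f2 and E2f1. E2f1, an activator freed from the retinoblastoma protein, read 259 and 253 units in G2-EC-KO and 154 and 122 units in control, a log2 change of 0.90 with an SE of 0.15 and a 95% confidence interval of 0.50 to 1.31 (adjusted p = 0.387 by limma). Its second probe gave 0.78 (SE 0.17), and the 2 G2-EC-KO arrays were nearly equal at both probes. E2f2, a second activator, read 686 and 953 units in G2-EC-KO and 386 and 278 units in control, a log2 change of 1.30 (SE 0.24). E2f8, an atypical E2F that represses E2F targets later in S phase, read 71.8 and 113 units in G2-EC-KO and 35.7 and 33.4 units in control, a log2 change of 1.39 (SE 0.24). At these 3 genes the lowest G2-EC-KO value lay well above the highest control value.

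Other factors of the family showed smaller differences. Tfdp1, the main dimer partner of the E2Fs, read 964 and 1129 units in G2-EC-KO and 724 and 792 units in control, a log2 change of 0.46 with an SE of 0.14 (adjusted p = 0.466 by limma). E2f6, a repressor that does not bind retinoblastoma proteins, read 1725 and 2119 units in G2-EC-KO and 1629.8 and 1492 units in control, a log2 change of 0.29 (SE 0.15). Both had G2-EC-KO above control without overlap. The third activator, E2f3, and the atypical E2f7 each had a log2 change of 0.28, with SE of 0.11 and 0.13, also without overlap, although only 2 of the 3 E2f3 probes were free of it. The repressors of quiescent cells, E2f4 at 0.10 (SE 0.16) and E2f5 at -0.14 (SE 0.16), overlapped between groups. Without G2-EC-KO replicate 2 both turned in sign, E2f4 to -0.057 and E2f5 to 0.033. Tfdp2, the other dimer partner, had a log2 change of -0.14 (SE 0.14) and a second probe at 0.037 (SE 0.20).

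In the retinoblastoma family, which binds and silences E2Fs, Rbl1 had the largest log2 change of the 3 genes. Rbl1, itself an E2F target, read 788 and 1048 units in G2-EC-KO and 697 and 653 units in control, a log2 change of 0.43 with an SE of 0.17 (adjusted p = 0.531 by limma). Rb1, the retinoblastoma gene, read 3548 and 3601 units in G2-EC-KO and 3258 and 3508 units in control, a log2 change of 0.080 (SE 0.11) with a second probe at -0.19 (SE 0.11), so its probes disagree in sign. Rbl2, the family member of quiescent cells, read 394 and 469 units in G2-EC-KO and 453 and 386 units in control, a log2 change of 0.039 (SE 0.15), and its second probe gave -0.045 (SE 0.13). Groups overlapped for Rbl2 at both probes, and its sign turned without control replicate 2, at -0.076, and without G2-EC-KO replicate 2, at -0.087. Among the 17 members with several tested probes, signs disagreed between probes for 6, which were Ccnd2, Cdk6, Cdkn1b, Tfdp2, Rb1 and Rbl2.

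The CDC25 phosphatases remove inhibitory phosphates from CDKs, and Wee1 adds them. Cdc25c, which acts at mitosis, read 24.5 and 57.5 units in G2-EC-KO and 10.1 and 8.4 units in control, while neither control array showed it well above background. A lower bound on its fold is therefore given, and the mean of the G2-EC-KO arrays was at least 1.83-fold higher. The fit's adjusted p of 0.387 by limma rests on control signals not well above background and is no test of the bound. The bound is set by the mean of the G2-EC-KO arrays against the lowest signal well above background on the control arrays. That lowest signal was 22.4 units on control replicate 1 and 18.8 units on control replicate 2. G2-EC-KO replicate 1, at 24.5 units, lay only a little above it, so the bound rests largely on replicate 2. Its second probe was well above background on 1 G2-EC-KO array and was not tested, and the bound there was only 1.003-fold. Cdc25b, which starts mitotic entry, read 1838 and 1816 units in G2-EC-KO and 1326 and 1341 units in control. Replicates of each group lay close together, the log2 change was 0.45 with an SE of 0.10 and a 95% confidence interval of 0.18 to 0.73 (adjusted p = 0.393 by limma), and its other probes gave 0.25 (SE 0.12) and 0.18 (SE 0.30). Cdc25a, which acts from the start of DNA synthesis, read 100.2 and 117 units in G2-EC-KO and 90.6 and 93.4 units in control, a log2 change of 0.24 (SE 0.13). Wee1 read 62.3 and 97.3 units in G2-EC-KO and 64.8 and 49.5 units in control, so the groups overlapped, with a log2 change of 0.46 (SE 0.27).

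Replicates 1 and 2 of G2-EC-KO were apart in many of these genes. Over the periodic members the median above the control mean was 0.93 on replicate 1 and 1.49 on replicate 2, and replicate 2 was the higher at 14 of 17, against 54.6% of all genes. The exceptions were Ccne1, E2f1 and Cdc25b. Values over the periodic members here include Cdc25c, whose control signals were not well above background. Control replicate 1 was above control replicate 2 at 14 of 17, against 49.9% of all genes. The median log2 gap between the G2-EC-KO arrays was 0.63 over periodic members and 0.22 over the other members, against 0.17 over all genes. Between the control arrays the corresponding gaps were 0.26 over periodic members, 0.12 over the other members and 0.11 over all genes. When 1 array was left out in turn, the log2 change lay between 1.32 and 2.15 for Ccna2, between 1.15 and 2.03 for Cdk1 and between 1.24 and 2.16 for Cdkn3. It lay between 0.73 and 1.07 for E2f1, between 0.46 and 0.66 for Ccne1 and between 0.45 and 0.46 for Cdc25b.

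**Figure D3:**
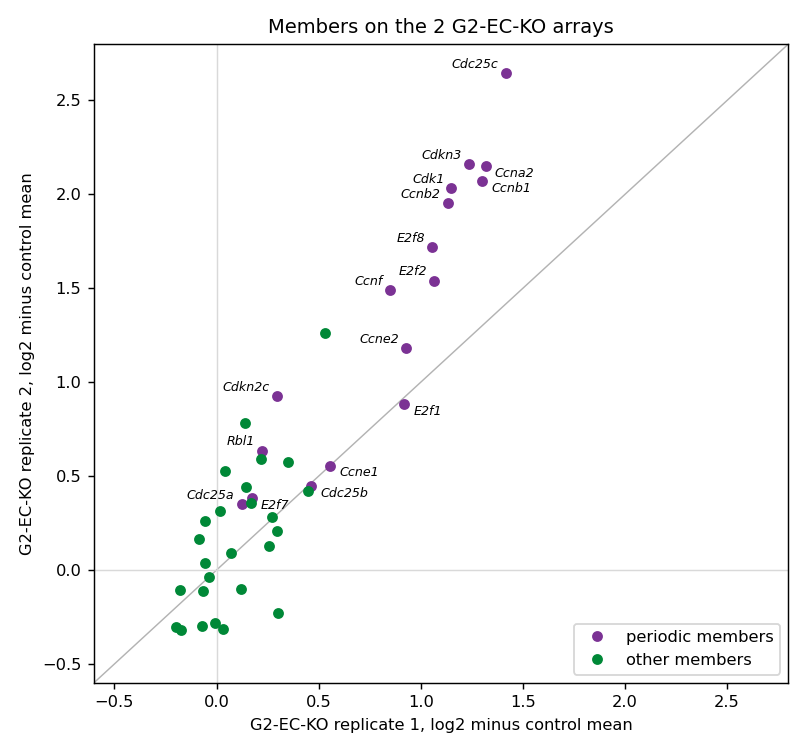
Log2 signal minus the control mean on G2-EC-KO replicate 1 (horizontal axis) and on replicate 2 (vertical axis) for the 43 tested members, with periodic members in purple and named. The grey diagonal marks equal values, and 14 of 17 periodic members lie above it, while Ccne1, E2f1 and Cdc25b lie on or just below it. Both axes use the same control mean, so the points share its error. For Cdc25c that mean rests on signals not well above background.

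Genes outside the members were followed in 6 further lists of the same pathway. No gene of these lists passed an adjusted p of 0.05 by limma. Over all genes, 58.6% had a positive log2 change, and 6.19% were higher and 1.99% lower at an unadjusted limma p under 0.05. Of 24 mitotic genes tested, all 24 had a positive log2 change with a median of 1.50, and 22 had an unadjusted limma p under 0.05. The leading 3 by unadjusted p were Aurkb, a kinase gene of chromosome segregation, at 1.78 (SE 0.27), the cytokinesis scaffold gene Anln at 1.51 (SE 0.24) and the topoisomerase gene Top2a at 1.47 (SE 0.24). Replicate 2 was the higher G2-EC-KO array at 24 of 24 of them, with list medians above the control mean of 1.19 on replicate 1 and 1.91 on replicate 2. Of 24 E2F targets of DNA replication, 22 had a positive and 2 a negative change, with a median of 0.60, and 16 had an unadjusted p under 0.05. The polymerase gene Pole read 592 and 651 units in G2-EC-KO and 256 and 213 units in control, a log2 change of 1.41 (SE 0.14). Replication origin factors Gins1 and Cdc45 had log2 changes of 0.97 (SE 0.12) and 1.19 (SE 0.15). In this list replicate 2 was the higher at 14 of 24 genes, with medians of 0.57 on replicate 1 and 0.65 on replicate 2. The G2-EC-KO arrays thus lay close in replication genes and apart in mitotic genes. This contrast was not tested.

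Median log2 changes of the other 4 lists were smaller. All 7 tested genes of the MuvB complex, B-Myb and FoxM1, which switch on mitotic genes, had a positive log2 change, with a median of 0.28 and 4 with an unadjusted limma p under 0.05. These included Lin9 at 0.62 (SE 0.13), Mybl2 at 0.89 (SE 0.18) and Foxm1 at 0.64 (SE 0.15). Among 13 tested genes of cyclin and inhibitor degradation, 10 had a positive change, with a median of 0.18, and 3 had an unadjusted p under 0.05. These 3 were Cks1b at 1.11 (SE 0.21) and Cks2 at 0.96 (SE 0.26), small CDK-binding proteins, and Fbxo5 at 0.93 (SE 0.24), an inhibitor of the anaphase-promoting complex. Cyclins and CDKs outside the members, many with roles in transcription, were listed with a few genes that are neither, Cdk5rap1 among them. The median log2 change was -0.019 over these 23 genes, with 11 positive and 12 negative. At an unadjusted limma p under 0.05, 1 was higher and 2 were lower. In that list Ccnt1, the partner of Cdk9, was at -0.43 (SE 0.12), Cdk13 at -0.55 (SE 0.17) and Cdk5rap1 at 0.89 (SE 0.29). The 18 p53 targets had a median of 0.15, with 12 positive and 6 negative, against 58.6% positive over all genes. At an unadjusted limma p under 0.05, 1 was higher and 1 lower, against 6.19% and 1.99% of all genes. These targets included Eda2r at 0.41 (SE 0.11), Tnfrsf10b at -0.82 (SE 0.30) and Phlda3 at 0.49 (SE 0.23).

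**Figure D4:**
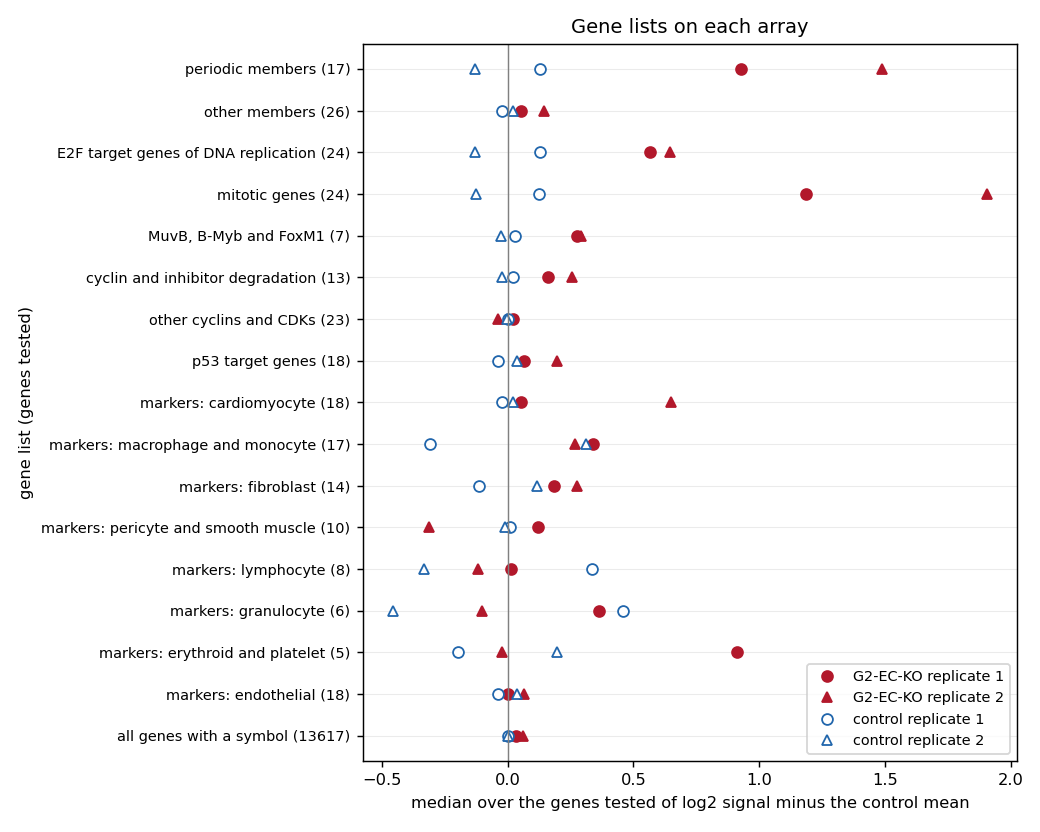
Median over the genes tested of each list of the log2 signal minus the control mean (horizontal axis), for each array, with the number of genes in parentheses. Filled red symbols are G2-EC-KO and open blue symbols control, with circles for replicate 1 and triangles for replicate 2. Periodic members, replication and mitotic genes stand to the right on both G2-EC-KO arrays. Of the marker lists, erythroid and platelet markers stand to the right on replicate 1 and cardiomyocyte markers on replicate 2.

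Markers of other cell types were read beside these genes, and none passed an adjusted p of 0.05 by limma. The groups overlapped at 12 of 18 cardiomyocyte, 11 of 17 macrophage and monocyte, 8 of 14 fibroblast, 4 of 5 erythroid and platelet, 9 of 10 pericyte and smooth muscle, 8 of 8 lymphocyte and 6 of 6 granulocyte markers tested. Over all 13617 genes tested, the groups overlapped at 7191, and 58.6% of genes had a positive log2 change. In bulk samples a change in the number of cells of a type and in RNA per cell cannot be told apart. Cardiomyocyte markers had a positive log2 change at 18 of 18, with a median of 0.36, and summed to 126614 and 176350.4 units in G2-EC-KO and 119556 and 124053 units in control. On G2-EC-KO replicate 2, the array with the higher mitotic genes, their median was 0.65 above the control mean, and on replicate 1 it was 0.052. Macrophage and monocyte markers had a positive change at 17 of 17 tested, with a median of 0.33. Of these, Ccr2 passed the filter on dim probes only through the G2-EC-KO arrays. The macrophage and monocyte markers summed to 23996 and 21656 units in G2-EC-KO and 15736 and 22246 units in control. Their medians relative to the control mean were 0.34 on G2-EC-KO replicate 1 and 0.27 on replicate 2, against -0.31 on control replicate 1 and 0.31 on control replicate 2, so control replicate 2 lay at the level of the G2-EC-KO arrays and control replicate 1 below it. Fibroblast markers had a positive change at 13 of 14, with a median of 0.19, and summed to 236528 and 251391 units in G2-EC-KO and 205959 and 236311 units in control. Sums run over all markers of a list with a probe, tested or not. Every marker of these 3 lists with a probe was well above background on at least 1 array. Erythroid and platelet markers had a positive change at 5 of 5 tested, with a median of 0.45, and summed to 148940.1 and 78653 units in G2-EC-KO and 86156 and 75105 units in control. Their medians relative to the control mean were 0.91 on G2-EC-KO replicate 1 and -0.023 on replicate 2, against -0.20 on control replicate 1 and 0.20 on control replicate 2. The list median thus lay above both controls on G2-EC-KO replicate 1 only. Not every marker followed it, since 1 of the 5 tested had both G2-EC-KO arrays above both controls, against 30.8% of all genes. Pericyte and smooth muscle markers had a median of -0.13, with 2 of 10 positive, and summed to 341937 and 244338 units in G2-EC-KO and 328715 and 296346 units in control. Lymphocyte markers had a median of -0.080, with 2 of 8 tested positive, and summed to 832 and 723 units in G2-EC-KO and 1224 and 579 units in control. Granulocyte markers had a median of 0.047, with 3 of 6 tested positive, and summed to 13704 and 9246 units in G2-EC-KO and 12431 and 6527 units in control. Cd3g and Cd8a of the lymphocyte list and Elane and Camp of the granulocyte list were not well above background on any array. The part of these cell types in the values of the members was not tested.

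**Figure D5:**
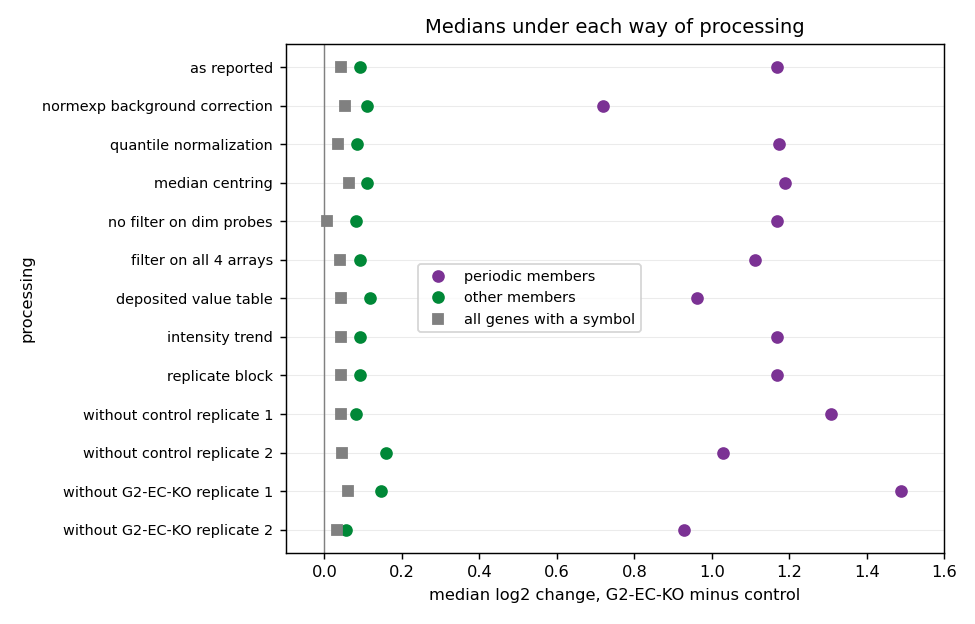
Median log2 change (G2-EC-KO minus control, horizontal axis) of periodic members, other members and all genes with a symbol, under the reported processing and each alternative. The periodic median lies between 0.72 with normexp background correction and 1.49 without G2-EC-KO replicate 1, and stays to the right of the other 2 medians in each of these settings.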

How the data were processed

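Cy3-labelled copies of total RNA were read on 1 Agilent 1-colour array per sample, per the labels' protocols. Feature Extraction is given as 10.7.3.1 by the file headers and as 10.5 by the submitters' processing notes. The deposited intensity of each spot is linear, per the file headers, with background subtracted and spatial trends removed on its own array, and arrays were not put on a common scale. A deposited value table equals median spot intensity minus median local background plus 16 in every row and served as an alternative, floored at 1.

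Control spots and outlier spots, 87 to 101 per array, were left out. The log2 of each intensity minus the 75th percentile of its array was averaged over spots of a probe. Probes well above background on at least 2 of 4 arrays, whatever their group, were tested, 26882 of 41174, after 11 with a missing value were left out. RefSeq accessions of GRCm38.p6 named 26933 probes. Groups were compared with limma 3.58.1 (lmFit, eBayes, two-sided, R 4.3.3) with Benjamini-Hochberg adjustment over all probes tested, and the script was tested on simulated data. With 2 arrays a side, the smallest p of an exact permutation test is 0.333. The mean spot signal was not used here, so normexp, with an offset of 50, took the median signal.

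Members and lists were chosen with earlier results of these data known. Array values were given, by rule, for, in each role, the up to 4 members with the smallest p and the brightest member, for any past the adjusted threshold and those whose probes disagree in sign at an unadjusted p under 0.05, and for Ccne1. Genes outside the members are the 3 of each pathway list with the smallest p, and marker lists are given by counts, medians and sums. Alternatives were the background correction, scaling, filter, value table, intensity trend, replicate block, choice of probe and leaving out each array.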

Additional observations from a re-analysis of the deposited data

How the results depend on the processing

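Members past an adjusted p of 0.05 numbered 0 under every alternative run, and the smallest adjusted p among members lay between 0.125 and 0.83. All probes past it numbered 1 as reported and with the deposited value table, 2 with normexp, quantile normalization or median centring, and 0 without a filter, with the filter on all 4 arrays, with the intensity trend and with the replicate block. Leaving out 1 array gave 0 to 8 such probes, with 8 without control replicate 1, 12 to 23 members at an unadjusted p under 0.05 beside 3.49% to 12.0% of all genes higher at that p, and a median log2 change of the members of 0.22 to 0.42. With the replicate block 16 members had an unadjusted p under 0.05, as against 14 without it. The labels do not say that replicate numbers pair the samples, so the numbers were not taken to do so. Deviations of same-numbered arrays correlated at 0.044 across probes, which cannot show whether samples were paired. With or without the block, 0 members passed an adjusted p of 0.05 by limma. Signs disagreed between tested probes for 6 members, Ccnd2, Cdk6, Cdkn1b, Tfdp2, Rb1 and Rbl2. At the brightest probe, signs held under all alternatives of processing and of left-out arrays for 36 of the 43 members tested. Of the others, Cdk5 turned to 0.010 with median centring and Cdkn2d to -0.012 with quantile normalization. When 1 array was left out, the ranges were -0.23 to 0.30 for Ccng2, -0.055 to 0.037 for Cdk5, -0.31 to 0.024 for Cdkn1c, -0.10 to 0.12 for Cdkn2d, -0.057 to 0.26 for E2f4, -0.31 to 0.033 for E2f5 and -0.087 to 0.16 for Rbl2. Fits without 1 array assume that the lone array of a group varies like the other group. Dim probes such as those of Cdc25c, Ccnb1 and E2f8 limit the size of their differences, with log2 changes of 0.72, 1.14 and 0.73 under normexp.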
